A study of Homo sapiens with 4 samples.

Results

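The guanylate-binding proteins GBP1 to GBP7 were followed in Caco-2 cells, a human colorectal carcinoma cell line used as a model of the intestinal epithelium, before and after interferon gamma (IFNγ). The members were the rows of the count data whose Ensembl identifier carries 1 of the symbols GBP1 to GBP7. All 7 had a row among the 37515 genes listed, and 5 of them were among the 14820 genes with enough counts to be tested. GBP6 and GBP7 were not, and they are given by their raw counts. Both groups were Caco-2 cells labelled WT, seeded in transwells and kept for 15 days in MEM medium. One group (2 libraries) was unstimulated and taken at 0 h. The other (2 libraries) was taken 3 h after 60 ng/ml IFNγ was added to the basal compartment. The IFNγ and the 3 h of culture cannot be told apart, since no untreated library at 3 h was analysed here. The labels do not say that the libraries came from separate cultures, so the p-values measure the spread between these libraries, which may be technical. A carcinoma line differs from the normal epithelium it stands for.

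GBPs are large GTPases of the dynamin superfamily. Their transcription is switched on by interferons through factors that bind the gamma-activated site (GAS), and through IRF1 and the ISGF3 complex, which bind the interferon-stimulated response element (ISRE). The proteins assemble on bacteria and on the vacuoles that enclose pathogens, and on Gram-negative bacteria the GBP1 coat serves as a platform for caspase-4, which starts the noncanonical inflammasome. GBP1, GBP2 and GBP5 end in a CaaX motif that is prenylated, by farnesyl on GBP1 and geranylgeranyl on GBP2 and GBP5, which anchors them in membranes.

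The 7 genes lie side by side within 381 kb of chromosome 1 (GRCh37, GENCODE 44). Along the chromosome they are GBP3 (ENSG00000117226, 89472362 to 89488577), GBP1 (ENSG00000117228, 89517565 to 89531043), GBP2 (ENSG00000162645, 89571815 to 89616139), GBP7 (ENSG00000213512, 89597425 to 89641692), GBP4 (ENSG00000162654, 89646827 to 89664625), GBP5 (ENSG00000154451, 89721872 to 89738543) and GBP6 (ENSG00000183347, 89829618 to 89853719). GBP6 is on the plus strand and the other 6 on the minus strand. The pseudogene GBP1P1 follows GBP6. GBP2 and GBP7 overlap on the same strand and share 621 bp of exon.

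To show the interferon-type letters next to the starts of these genes, stretches of 30 bases are given from the RefSeq promoters (GRCh38.p14, 250 bases before to 50 after the start). RefSeq entries were found for 5 of the 7 members, all but GBP2 and GBP5. Each promoter was searched on both strands for the ISRE letters, which are GAAA, any 2 bases and GAAA again, and for the GAS letters TTCNNNGAA. A looser GAS, TTNCNNNAA, was searched as well, and it can overlap the strict one. In the stretches, written 5′ to 3′ on the strand of the gene, capitals mark an ISRE, which all 3 genes carry in its reverse form, or a GAS of either kind. GBP7 is shown because its promoter shares a run with that of GBP1 but holds no ISRE.
GBP1, chr1:89065310-89065339, minus strand: gtacTTTCAGTTTCataTTACTCTAAatcc
GBP3, chr1:89022854-89022883, minus strand: acTTCCTTGAAagaagtacTTTCAGTTTCa
GBP4, chr1:89198927-89198956, minus strand: gtgcatgtccTTTCAATTTCggttctcaca
GBP7, chr1:89176145-89176174, minus strand: aatcatggactgtcatattactctatttat

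Counting the first transcribed base as 1, the ISRE lay at -127 to -118 in GBP1, at 3 to 12 in GBP3 and at -4 to 6 in GBP4. GBP3 had the strict GAS letters at -15 to -7. GBP1 had none, but the loose GAS letters at -114 to -106 stood 3 bases after its ISRE. GBP1 and GBP3 shared a run of 19 identical bases that includes the ISRE, at -134 to -116 in GBP1 and at -5 to 14 in GBP3. GBP1 and GBP7 shared a run of 13 bases, at -119 to -107 in GBP1, which begins within the ISRE of GBP1. GBP6 and GBP7 held neither the ISRE nor the strict GAS letters in this window, but each held 2 matches of the loose GAS. GBP1 and GBP3 held 3 loose matches each, and GBP4 held no GAS of either kind. The ISRE letters were present in 3.65% of the 27305 promoters of the same length, the strict GAS in 7.88% and the loose GAS in 34.1%. Among 10505 tested genes with a promoter the ISRE letters were in 2.65%, in 6.40% of the 297 that rose and in 3.27% of the 520 that fell. The strict GAS was in 6.34%, 10.4% and 8.65% of these, and the loose GAS in 24.8%, 24.9% and 30.6%. These shares were not compared by a test. These matches are descriptions of the letters, not evidence of binding.

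Of the 7 members, 4 rose after 3 h of IFNγ and none fell. The 4 were GBP1, GBP2, GBP4 and GBP5, with fold changes from 2.36 to 30.4. GBP3, although expressed, was not called, and GBP6 and GBP7 stayed at 0 or 1 count per library. A gene was called where edgeR's quasi-likelihood test gave a p-value below 0.05 after Benjamini-Hochberg adjustment and the log2 fold change was above 1 in size. By this rule 2.88% of all tested genes were called higher and 4.4% lower. GBP4 and GBP5 passed the filter on low counts only through the IFNγ libraries, so their direction was fixed in advance. Against a null of a log2 fold change of 1 (edgeR's glmTreat) no member was called, with adjusted p-values of 0.0590 for GBP5, 0.0600 for GBP4, 0.0808 for GBP1 and 0.762 for GBP2, so the 4 calls are of a change and not of one shown to exceed 2-fold. In bulk RNA, a smaller share of responding cells and less RNA per responding cell cannot be told apart.

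**Figure D1:**
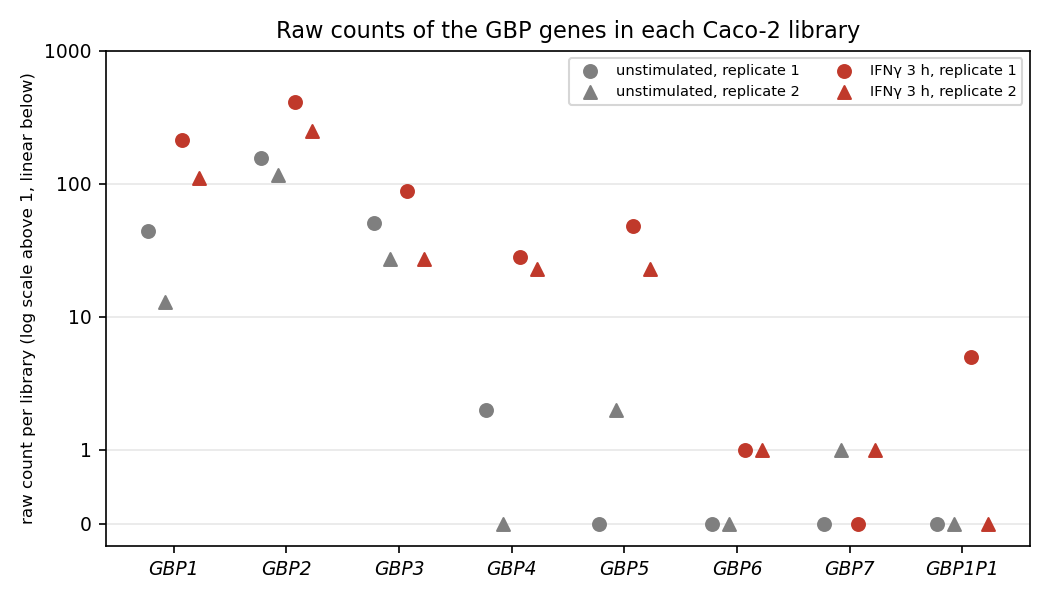
Raw counts of GBP1 to GBP7 and the pseudogene GBP1P1 (vertical axis, log scale above 1 and linear below) in each of the 4 Caco-2 libraries, unstimulated in grey and IFNγ in red, with circles for replicate 1 and triangles for replicate 2. Both IFNγ libraries lie above both unstimulated ones for GBP1, GBP2, GBP4 and GBP5, whereas GBP3 overlaps and GBP6 and GBP7 do not exceed 1 count.

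GBP1, whose protein is the first to coat cytosolic bacteria, had 44 and 13 counts before IFNγ and 215 and 110 after. Both IFNγ libraries were above both unstimulated ones, and the 2 unstimulated libraries differed from each other more than the 2 IFNγ libraries did in proportion. Its normalized level rose from 3.05 ± 1.74 CPM (counts scaled to the TMM effective library size, SD, n = 2) to 18.0 ± 4.17 CPM (SD, n = 2). This was a log2 fold change of 2.50 (standard error 0.359, edgeR adjusted p = 0.00458), or 5.65-fold. It was the rank 61 change among the 14820 tested genes, counted from the largest increase. Without unstimulated replicate 1 the log2 fold change was 3.30, and without unstimulated replicate 2 it was 2.07.

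GBP2, a membrane-anchored member that joins the GBP1 coat, was the member with the highest level per kb of exon in both groups. It had 155 and 116 counts before IFNγ and 410 and 248 after, so the groups did not overlap. The level went from 15.7 ± 0.820 CPM (SD, n = 2) to 36.9 ± 4.27 CPM (SD, n = 2). The log2 fold change of 1.24 (standard error 0.160, edgeR adjusted p = 0.00345) was the smallest of the 4 called members and close to the threshold of 1. With each library left out in turn it ran from 1.10 to 1.33, with an adjusted p-value of at most 0.0123. GBP2 shares 7.89% of its 50-base exon words with GBP7, and that sequence cannot be assigned to one of the genes by a read that lies within it.

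GBP4 and GBP5 were the members with the largest fold changes and were nearly silent before IFNγ. GBP4, which lacks the CaaX motif, went from 2 and 0 counts to 28 and 23. GBP5, which is held at the Golgi by its geranylgeranyl anchor, had 0 and 2 counts and then 48 and 23. For both genes each IFNγ library was more than 10 times above the higher unstimulated one in raw counts. The ratio of summed counts, scaled for library size, was 25.2 for GBP4 with a 95% exact counting interval from 6.63 to 214, and 35.1 for GBP5 with an interval from 9.36 to 295. These intervals cover counting error only, and their width comes from the 2 counts in each unstimulated group. The fitted log2 fold changes were 4.51 for GBP4 (standard error 0.70, edgeR adjusted p = 0.00589) and 4.92 for GBP5 (standard error 0.770, edgeR adjusted p = 0.00604), ranks 18 and 15 among the tested genes.

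The fitted values of these genes depended on where the 2 unstimulated counts fell. GBP4 had a log2 fold change of 7.60 without unstimulated replicate 1, which leaves it at 0 in the unstimulated group, and 3.81 without unstimulated replicate 2. GBP5 had 8.20 without unstimulated replicate 2 and 3.75 without unstimulated replicate 1. Both were called each time. A fitted fold change against a group at 0 depends on the prior count and is no measured size. DESeq2's default independent filtering gave neither gene an adjusted p-value.

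GBP3, a close relative of GBP1 in sequence, had 51 and 27 counts before IFNγ and 88 and 27 after. Replicate 1 of the IFNγ group was the highest library, and on the CPM scale replicate 2 of the IFNγ group (3.68) was the lowest of the 4, just below unstimulated replicate 2 (3.78). The level was 4.37 ± 0.837 CPM (SD, n = 2) before and 6.12 ± 3.45 CPM (SD, n = 2) after. Its log2 fold change of 0.50 (standard error 0.413, edgeR adjusted p = 0.433) did not pass the test. Without IFNγ replicate 1 it was -0.28, and without IFNγ replicate 2 it was 0.93.

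GBP6 had 0 and 0 counts before IFNγ and 1 and 1 after. GBP7 had 0 and 1 before and 0 and 1 after. Both groups were at or under the limit of 3 counts that a count of 0 allows, which was 0.172 CPM over the unstimulated group and 0.170 CPM over the IFNγ group. A change of either gene was not detectable at this depth. GBP1P1 had 5 counts, all in IFNγ replicate 1, and 0 in the other 3 libraries. Set against the limit of 3 counts over the group, the ratio was 1.65, from that library alone. It leaves out the counting error of the 5 counts, so no rise of GBP1P1 was shown. GBP1P1 shares 23.6% of its 50-base exon words with GBP1.

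**Figure D2:**
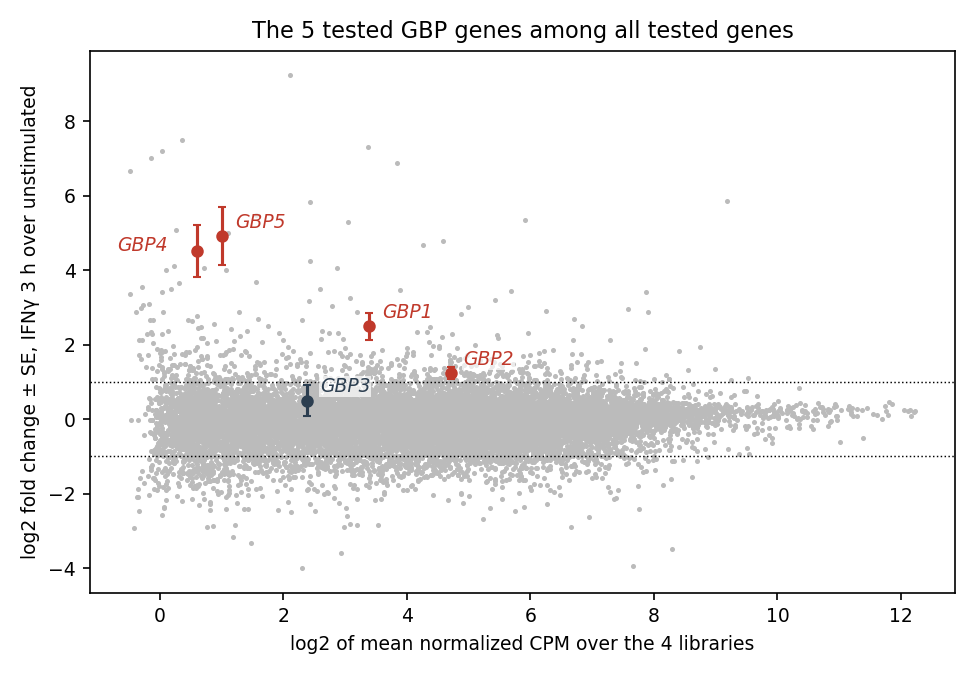
The log2 fold change of IFNγ over unstimulated (vertical axis) against the log2 of the mean normalized CPM over the 4 libraries (horizontal axis) for all tested genes in grey, with the 5 tested GBP genes marked with their standard errors, called ones in red and GBP3 in dark blue. GBP4 and GBP5 lie high at the left edge, GBP1 and GBP2 above the dotted line at 1 at higher levels, and GBP3 within the grey cloud.

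The groups did not overlap for 4 of the 5 tested members, each with IFNγ higher. For GBP4 and GBP5 this direction was fixed by the filter, which they passed only through the IFNγ libraries. Of all tested genes, 31.6% had non-overlapping groups with IFNγ higher and 30.8% with IFNγ lower, so with 2 libraries a group this separation is common. The test across genes also weighs the size of the change.

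To compare the members with each other, counts were divided by the exon length of each gene. Summed over the 7 genes, the family level was 3.98 and 3.51 CPM per kb of exon in the unstimulated libraries and 11.8 and 8.89 in the IFNγ libraries, a ratio of means of 2.76. Before IFNγ the order was GBP2 at 2.17 ± 0.113 CPM per kb (SD, n = 2), GBP3 at 1.02 ± 0.195 (SD, n = 2) and GBP1 at 0.50 ± 0.285 (SD, n = 2). Each library of one of these genes was above each library of the next. After IFNγ the order was GBP2 at 5.10 ± 0.591 CPM per kb (SD, n = 2), GBP1 at 2.94 ± 0.684 (SD, n = 2) and GBP3 at 1.43 ± 0.805 (SD, n = 2), again without overlap. GBP1 and GBP3 thus changed places. Their lack of overlap before IFNγ rests on the length used. In CPM, not divided by length, GBP1 in unstimulated replicate 1 (4.28) was above GBP3 in unstimulated replicate 2 (3.78). Within each unstimulated library GBP3 was above GBP1 in CPM as well.

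GBP4 followed at 0.477 ± 0.0478 CPM per kb (SD, n = 2) after IFNγ and GBP5 at 0.356 ± 0.0988 (SD, n = 2). The order of these 2 rests on the length used. With the longest transcript in place of all exons, GBP5 held 3.51% of the family and GBP4 3.03%, the opposite order. GBP6 and GBP7 were at 0.0249 and 0.0281 CPM per kb, values of 2 and 1 counts that set no order between them.

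**Figure D3:**
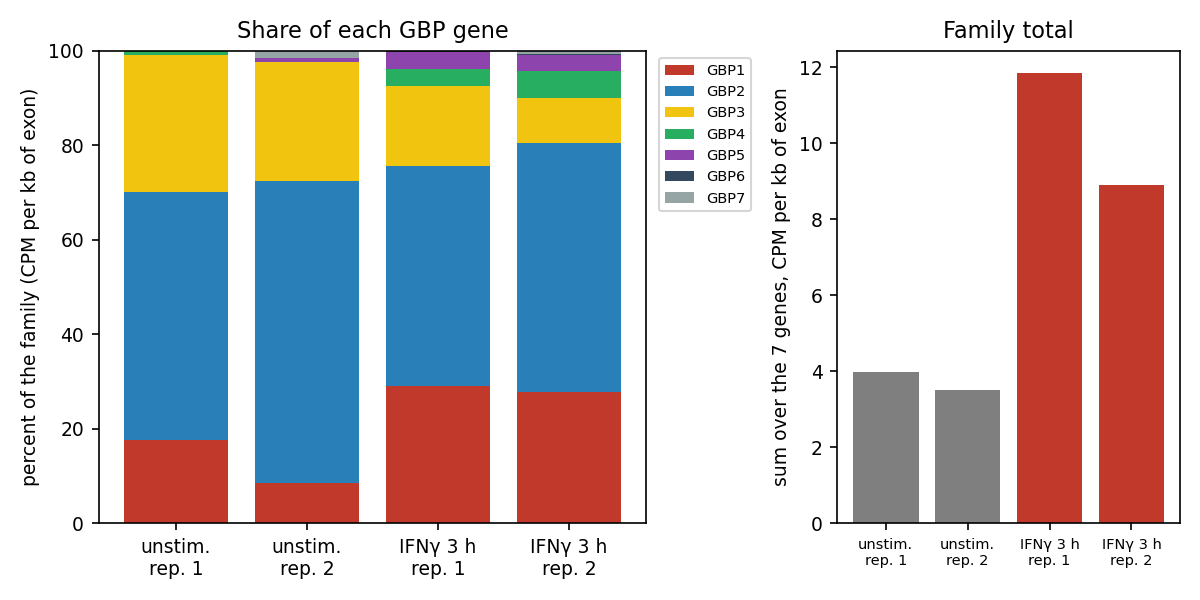
Left, the share of each of the 7 GBP genes in the sum of the family (percent, CPM per kb of exon) in each library, and right, the family sum in CPM per kb of exon. The GBP1 share (red) is larger and the GBP3 share (yellow) smaller in both IFNγ libraries than in both unstimulated ones, while the family sum is more than 8 in the IFNγ libraries and below 4 in the unstimulated libraries.

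As a share of the family, GBP1 was at 17.6% and 8.49% in the unstimulated libraries and at 29.0% and 27.7% in the IFNγ libraries. The mean went from 13.1% ± 6.46 (SD, n = 2) to 28.3% ± 0.903 (SD, n = 2). GBP3 went the other way, from 29.1% and 25.1% to 16.9% and 9.68%. GBP2 was at 58.2% ± 8.17 (SD, n = 2) before and 49.7% ± 4.29 (SD, n = 2) after, and its libraries overlapped between the groups. GBP4 and GBP5 together grew from under 1% in each unstimulated library to 4.75% ± 1.42 (SD, n = 2) for GBP4 and 3.41% ± 0.267 (SD, n = 2) for GBP5. A share falls when others rise, so the smaller share of GBP3 is no decrease of its level.

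Whether the members responded to different degrees was tested by the ratio of 2 members' counts within a library, which is free of the scaling between libraries. All 10 pairs of the 5 tested members were compared. In 9 of them the ratio in both IFNγ libraries lay on the same side of both unstimulated ones. For each of these 9 the two-sided exact permutation test gave p = 0.333, the smallest value that 2 against 2 libraries allow, and 0.370 after Benjamini-Hochberg adjustment over the 10 pairs. No difference between members could therefore pass a threshold of 0.05 in this design. The 10 pairs share 5 genes, so they are not independent. GBP4 and GBP5 had enough counts only through the IFNγ libraries. This selection favoured the separation of their pairs with GBP1, GBP2 and GBP3, which is therefore no support. The pairs free of it were GBP1 to GBP2, GBP1 to GBP3 and GBP2 to GBP3. How often other pairs of genes separate in this way was not computed. For GBP1 to GBP5 the separation was narrow, with a log2 ratio of 2.43 in unstimulated replicate 2 against 2.15 and 2.23 in the IFNγ libraries.

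In size, the log2 ratio of GBP1 to GBP2 was 1.41 higher after IFNγ than before, with values from 0.76 to 2.06 when each library was left out in turn or 1 was added to each count. The log2 ratio of GBP1 to GBP3 was 2.26 higher, from 1.86 to 2.67 over the same settings. It was the widest gap among GBP1, GBP2 and GBP3, the members with more than 10 counts in every library. The log2 ratio of GBP2 to GBP3 was 0.86 higher, from 0.38 to 1.34. The log2 ratio of GBP4 to GBP5 was 0.38 lower after IFNγ (exact permutation p = 1.00), but it ran from -2.71 to 1.94 over these settings, so that the libraries set no narrow limit on a difference between the 2 genes.

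The genes whose values over the 4 libraries were most like those of a member were found by the Euclidean distance between log2 CPM values (prior count 2), each centred on the mean of the gene. For GBP5 the likest genes were IFIT5, an interferon-induced RNA-binding protein (distance 0.213), NNMT (0.484) and the metallothionein MT2A (0.485). For GBP4 they were TRIM29 (0.408), CYP1A1, an aryl hydrocarbon receptor target (0.505), and BNIP5 (0.512). GBP1 was the rank 19 gene for GBP4, and GBP4 the rank 20 gene for GBP1.

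For GBP1 they were ENSG00000253508 (0.0902), CAND2 (0.287) and the mitochondrial tRNA gene MT-TT (0.299), each with at most 28 counts in any library. For GBP2 they were CHMP6, an ESCRT-III subunit (0.0463), FGFBP1 (0.0596) and the brush border enzyme lactase, LCT (0.0616). For GBP3 they were SPTBN4 (0.139), SDR42E1 (0.15) and ENSG00000244331 (0.153). No other GBP gene was among the 3 likest genes of any member. With 4 values per gene, a short distance is easily reached and describes these libraries only.

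The responses are given here in the order of the genes along the chromosome, with no test of that order. From GBP3 at one end to GBP6 at the other, the log2 fold changes ran 0.50, 2.50, 1.24, 4.51 and 4.92 through GBP3, GBP1, GBP2, GBP4 and GBP5, with the untested GBP7 between GBP2 and GBP4 and the untested GBP6 at the far end. Of 9 genes listed as neighbours of the cluster, 8 were tested, 1 rose and 0 fell, with a median log2 fold change of -0.18. The median over all tested genes was -0.01. The gene that rose was LMO4, which encodes a LIM-domain transcriptional cofactor, with 881 and 649 counts before and 1627 and 1489 after (log2 fold change 1.03, edgeR adjusted p = 0.0045). LMO4 lies farther from the cluster than the neighbours drawn in the figure. Without unstimulated replicate 1 its log2 fold change was 0.99, and without IFNγ replicate 2 it was 0.82, both under the threshold. The nearest tested neighbours, RBMXL1 on the GBP3 side (log2 fold change 0.33, edgeR adjusted p = 0.139) and LRRC8B beyond GBP6 (0.34, edgeR adjusted p = 0.240), were not called. LRRC8C had at most 2 counts in any library.

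**Figure D4:**
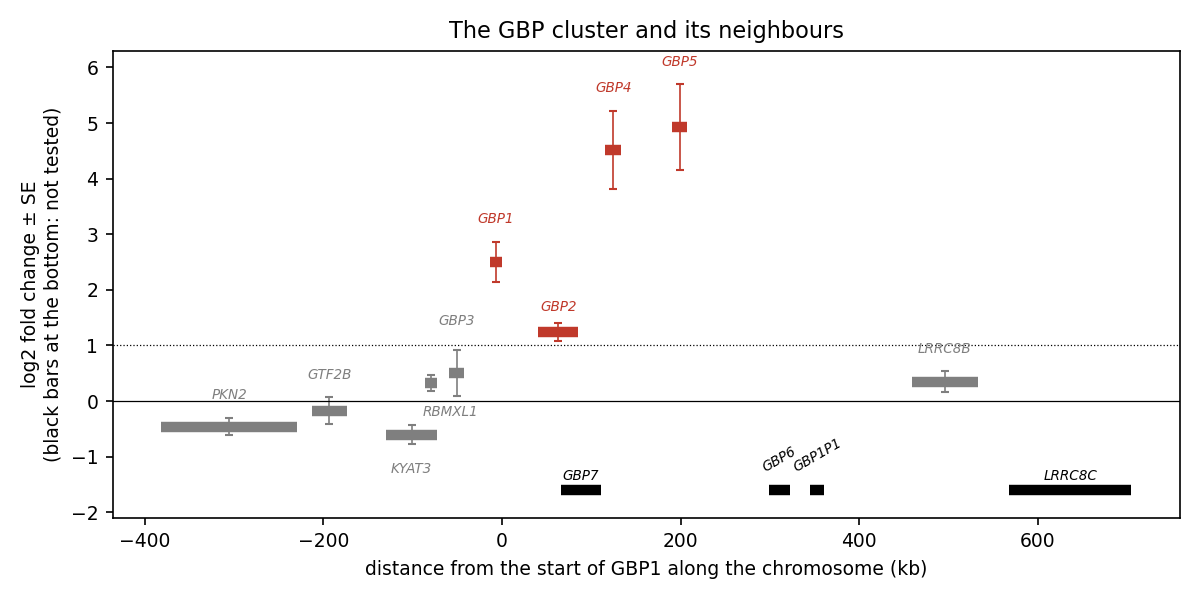
The log2 fold change of IFNγ over unstimulated with its standard error (vertical axis) of the GBP genes and nearby genes, drawn as bars along the chromosome at their distance from the start of GBP1 (kb, horizontal axis), with called genes in red, tested genes that were not called in grey, and untested genes in black at the bottom. The 4 called GBP genes stand above the dotted line at 1, and none of the neighbours drawn does. LMO4, the listed neighbour that was called, lies outside the stretch drawn.

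Among genes that carry or restrain the IFNγ signal to the GBP promoters, 14 of 14 were tested, 3 rose and 1 fell. The median log2 fold change, over both kinds, was 0.62. Without IFNγ replicate 2 the number that rose was 5. IRF1, the ISRE-binding activator, rose from 198 and 144 counts to 12348 and 7949, a log2 fold change of 5.86 (standard error 0.139, edgeR adjusted p = 7.43e-06). STAT3 (1.14) and IRF8, another interferon regulatory factor (1.11), rose as well. PIAS1, a SUMO ligase that restrains cytokine signalling, had 452 and 279 counts before and 171 and 124 after, a log2 fold change of -1.31 (standard error 0.148, edgeR adjusted p = 0.00225). With a trend of GC content and length removed its value was -0.90, under the threshold.

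The others of this list were not called. The receptor chain IFNGR1 had a log2 fold change of 0.78 and IFNGR2 one of -0.51, both past the adjusted p-value but under the fold threshold. With the trend of GC content and length removed IFNGR1 was at 1.03 and was called. JAK1 and JAK2, the receptor kinases, were at 0.36 and -0.32. SOCS1, the feedback inhibitor of the JAKs, had 1 and 4 counts before and 14 and 12 after (log2 fold change 2.29, edgeR adjusted p = 0.0597). IRF9, the DNA-binding subunit of ISGF3, was at 1.43 (edgeR adjusted p = 0.151). Both SOCS1 and IRF9 were called with the replicate number as a block, and with no filter on low counts.

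None of the related GTPases was called after 3 h. Of 11 listed genes with a GBP-like fold or induced by interferon, 10 had a row and 6 were tested, with a median log2 fold change of -0.26. ATL1, ATL2 and ATL3, the atlastins that fuse membranes of the endoplasmic reticulum and share the GBP type of GTPase domain, had log2 fold changes of 0.08, -0.54 and -0.19. The interferon-induced MX2 was at -0.33 (edgeR adjusted p = 0.625), and MX1 had 6 and 4 counts before and 15 and 4 after, too few to be tested. With edgeR, ATL2 was the member of this list with an adjusted p-value under 0.05 (0.0463), in the direction opposite to the GBP genes.

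The enzymes that prenylate GBP1, GBP2 and GBP5 (FNTA, FNTB and PGGT1B) were all measured. They were listed with RCE1, ICMT and ZMPSTE24, which act on the CaaX end after prenylation. Of 6 genes tested, 1 rose and 0 fell, with a median log2 fold change of -0.07. FNTB, the beta subunit of farnesyltransferase, had a log2 fold change of -0.12, and PGGT1B, that of the type I enzyme that adds geranylgeranyl, one of -0.03. FNTA, the alpha subunit that both enzymes use, was at -0.26. RCE1, the protease that trims the CaaX end after prenylation, rose from 289 and 185 counts to 607 and 465 (log2 fold change 1.18, edgeR adjusted p = 0.00235). It was at 0.92, under the threshold, with the trend of GC content and length removed.

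Of 15 genes of GBP-linked defence and the inflammasome, 11 were tested, 0 rose and 2 fell, and the median log2 fold change was 0.06. CASP4, the caspase recruited to GBP coats, was already expressed at 703 and 499 counts before IFNγ and had 858 and 471 after (log2 fold change 0.10, edgeR adjusted p = 0.687). GSDMD, the pore-forming substrate of that caspase, had 552 and 407 counts before and 622 and 404 after (0.06, edgeR adjusted p = 0.756). PYCARD, the inflammasome adaptor, was at 0 in all 4 libraries. NLRP3, a sensor, had 0 and 1 counts before and 8 and 9 after, and APOL3, a GBP1 partner that lyses bacteria, had 2 and 0 before and 7 and 5 after. Neither passed the filter on low counts.

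The 2 genes of this list that fell were PIM1 and IL1B. PIM1, a kinase that holds GBP1 in check by phosphorylation, had 664 and 467 counts before and 275 and 229 after (log2 fold change -1.17, standard error 0.139, edgeR adjusted p = 0.00267). IL1B, which encodes an inflammasome-processed cytokine, had 12 and 11 counts before and 2 and 2 after (-2.48, edgeR adjusted p = 0.0301). IL1B passed the filter on low counts only through the unstimulated libraries, so its direction was fixed in advance. The call of IL1B was lost without any 1 of the 4 libraries, with adjusted p-values of 0.0926 without unstimulated replicate 1, 0.104 without unstimulated replicate 2, 0.109 without IFNγ replicate 1 and 0.0611 without IFNγ replicate 2.

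**Figure D5:**
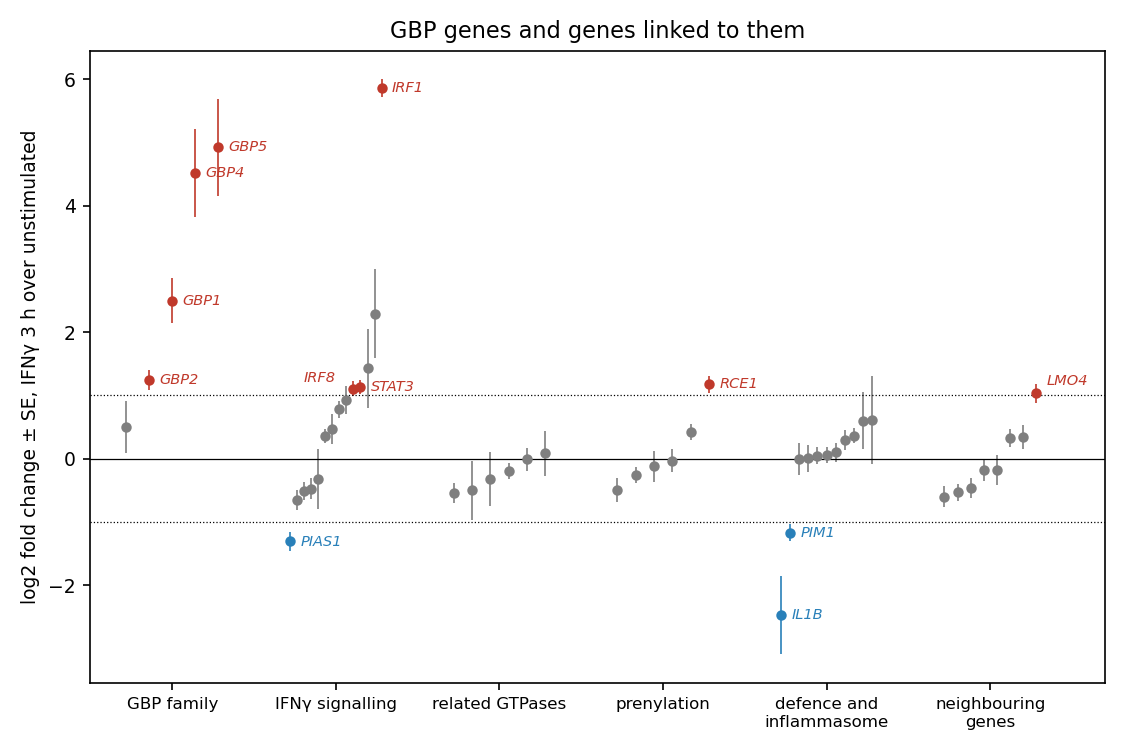
The log2 fold change of IFNγ over unstimulated with its standard error (vertical axis) for the tested members of the GBP family and of 5 lists of genes linked to it, ordered by value within each list, with called genes named and drawn in red (higher) or blue (lower) and the rest in grey. The dotted lines mark the thresholds of 1 and -1. The GBP family and the IFNγ signalling list hold the highest values, and the related GTPases hold no called gene.

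The libraries held 7171455 to 10365346 counts, and replicate 1 was the deeper in both groups. To check the labels, 10 genes known to be induced by IFNγ were listed. Of the 7 tested, 6 rose (IRF1, TAP1, PSMB9, CXCL9, UBD and NLRC5) and none fell. Apart from IRF1 and TAP1, the tested genes passed the filter on low counts only through the IFNγ libraries, so their direction was fixed in advance. CXCL10 had 0 and 0 counts before IFNγ and 2 and 1 after. CXCL11 had 0 and 0, then 3 and 0, and IDO1 had 1 and 2, then 2 and 0. These genes had too few counts to be tested. Of the epithelial markers, 8 of 8 were tested and their summed level was 4584 to 4904 CPM before and 5137 to 5296 CPM after IFNγ. CDX2 rose (log2 fold change 1.20) and SI, sucrase-isomaltase, fell (-1.13). Neither was called with the trend of GC content and length removed (0.97 and -0.73), and SI was not called by DESeq2 (adjusted p = 0.0536) or without IFNγ replicate 2 (-0.76). Leukocyte markers summed to 13.4 to 16.3 CPM before and 19.4 to 21.6 after. Most of this came from CSF1R (76 and 57 counts before, 101 and 75 after), CD14 (36 and 34, then 59 and 65) and LYZ (22 and 21, then 26 and 12). PTPRC was at 0 in both unstimulated libraries and at 2 and 0 counts after. None of their 3 tested genes was called. CD14 had a log2 fold change of 0.82, and of 1.10 without IFNγ replicate 1. Endothelial markers summed to 1.26 to 1.85 CPM before and 1.85 to 2.32 after. Fibroblast markers summed to 97.4 to 191 CPM before and 126 to 173 after, mostly COL1A1, while DCN had at most 1 count. The part of the leukocyte markers in the GBP values was not tested.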

How the data were processed

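RNA of Caco-2 cells (mirVana kit) was made into TruSeq libraries from 1 µg. The authors deposited read counts for each Ensembl gene in each library, without normalization or pooling. The submitters' processing notes name HISAT 0.5.1 and HTSeq 0.6.1p1. The genome build, the annotation and the strand setting are not given in the sources used here. Reads in exon sequence that GBP2 shares with GBP7, in 50-base words common to GBP1 and GBP1P1, or in exons that meet unlisted transcripts on the opposite strand (148 bp of GBP4, 324 bp of GBP5 and 103 bp of GBP7) are therefore uncertain. A symbol was paired with 96.5% of the 37515 identifiers, and 8158 genes were at 0 in every library. Some listed genes (IRGC, PECAM1) were not analysed here.

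Counts were tested with edgeR 4.0.16 (quasi-likelihood, TMM scaling, default filter on low counts, no block) in R 4.3.3, IFNγ (2 libraries) against unstimulated (2 libraries). P-values were adjusted over all 14820 tested genes. CPM values are counts over the TMM effective library size. Standard errors are the log2 fold change over the square root of F. Ratios between members added 0.5 to each count. Exon lengths, GC content and shared 50-base words came from GENCODE 44 on GRCh37, promoters from RefSeq on GRCh38.p14. Alternatives were other scalings, DESeq2 1.42.0, other filters and thresholds, the removal of a GC and length trend by loess, the replicate block, and each library left out. The edgeR fits with and without the block and the DESeq2 fit were checked with simulated counts, the other alternatives were not. Of genes changed 4-fold, edgeR recovered 90.7% without and 91.3% with the block, and DESeq2 85.5%. False calls were 4.03%, 5.50% and 2.20% of the calls, in the same order. The simulated counts held no shared replicate effect and no GC trend, so they do not cover those features of the data. The totals were 7171455 to 10365346 counts, and the 2 libraries per group limit precision.

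The text names the 7 members, GBP1P1, the 3 likest genes of each tested member, and from each list the called genes and those whose role is explained. 1 gene was taken out of the lists and is not reported here. Members and lists were chosen with earlier results of these data known.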

Additional observations from a re-analysis of the deposited data

How the results depend on the processing

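GBP1 and GBP2 kept their direction and their call in every alternative scaling, filter and test and with each library left out, except under edgeR's glmTreat against a log2 fold change of 1, which called 0 of the 7 members (adjusted p-values 0.0590 for GBP5, 0.0600 for GBP4, 0.0808 for GBP1 and 0.762 for GBP2) and 67 genes higher and 46 lower in all. With DESeq2's default filtering, and with at least 10 counts required in every library, 2 members were called (GBP1 and GBP2), since GBP4 and GBP5 then had no adjusted p-value or were not tested. DESeq2 without that filtering called all 4. With each library left out in turn, 4 members were called each time, and the all-gene counts ran from 352 to 445 higher and from 504 to 1239 lower, the last without IFNγ replicate 1. GBP3 lay between -0.28, without IFNγ replicate 1, and 0.93. The GBP4 to GBP5 comparison lay between -2.71 and 1.94 when a library was dropped, turning sign without unstimulated replicate 1.

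Log2 fold changes rose with GC content across 14518 tested genes (Spearman rho = 0.431). After removal of the GC and length trend 404 genes were called higher and 292 lower, against 427 and 652 without the correction, and the 4 members stayed called with log2 fold changes of 2.79 (GBP1), 1.5 (GBP2), 4.74 (GBP4) and 5.33 (GBP5). Without the threshold on fold change the calls were 1337 higher and 1626 lower, and with an adjusted p-value under 0.01 there were 382 lower. The same-numbered libraries share only a number, and their deviations from the group means correlated with r = 0.415. With the replicate block 4 members and 492 genes were called higher and 896 genes lower. With the block and the GC and length trend removed these were 4, 474 and 494, and GBP3 reached an adjusted p-value of 0.0402 with a log2 value of 0.75, too small for a call.

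Of the lists, IFNγ signalling had 5 higher with no filter on low counts and with the replicate block, 6 higher and 0 lower with the GC trend removed and the block, 0 lower with the GC trend removed, 5 higher and 3 lower with no fold threshold, and 1 higher and 0 lower with glmTreat. It had 3 to 5 higher with each library left out. The related GTPases had 1 lower (ATL2) with no fold threshold. The list of prenylation and CaaX-processing enzymes had 0 higher with the GC trend removed, with or without the block, and with glmTreat. The defence list had 1 lower with DESeq2 with or without its filtering, with at least 10 counts, with an adjusted p under 0.01 and with any library left out, 0 lower with glmTreat, and 1 higher with no filter on low counts. The neighbours had 0 higher with library size only and with glmTreat, 0 to 1 higher with each library left out, and 2 lower with no fold threshold. The label check had 2 higher with at least 10 counts in every library.

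Shares of the family depended on length. With raw counts in place of counts per kb they were 26.3% (GBP1), 54.6% (GBP2) and 5.69% (GBP5) after IFNγ and 67.2% (GBP2) and 18.6% (GBP3) before. With the longest transcript they were 27.1% (GBP1), 56.1% (GBP2) and 3.03% (GBP4) after and 20.3% (GBP3) before. With 2 counts in the unstimulated group, the 95% counting intervals of the ratios ran from 6.63 to 214 for GBP4 and from 9.36 to 295 for GBP5. The causes of the other changes were not tested.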
